A study of Mus musculus with 2 samples.

Results

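A small population of smooth muscle or pericyte-like cells was examined in a clone of induced myogenic progenitor cells (iMPCs) grown with the JAK inhibitor CP. Its 181 members were chosen by a measured value, at least 3 unique molecular identifiers (UMIs, each standing for 1 captured RNA molecule) of Myh11, the smooth muscle myosin heavy chain. They were found among 10834 kept cell barcodes of the F/R/C+CP library and 14796 kept barcodes of the series. Members were set against the 10653 other kept barcodes of the same library and against 3523 of these with Pax7 at 1 or more per 10000 UMIs and no Myh11, called the Pax7 set. Since the rule used Myh11, its level is a description and supports nothing else.

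iMPCs are cultures of muscle stem cells, committed precursors and contractile fibers made from mouse fibroblasts by the muscle transcription factor MyoD. The F/R/C+CP group is 1 clone derived and kept with Forskolin (a cyclic AMP agonist), RepSox (a TGF-β receptor inhibitor), CHIR (a GSK3 inhibitor) and CP. The F/R/C group is 1 clone with Forskolin, RepSox and CHIR. Fibroblasts of both carried the genotype Tg:Pax7-nGFP/C57BL6;DBA2, received 4 transfections of synthetic MyoD-mRNA and had the interferon decoy B18R in the medium. Each group is therefore 1 clone and 1 library, cells of a library are not replicates, and clone, medium and library cannot be told apart. No test was run, no p-value is given, and every interval is a 95% interval that covers counting error only.

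Smooth muscle cells line vessels and hollow organs and contract slowly through smooth muscle actins, myosin and calponin. Their contractile genes are switched on by serum response factor (SRF), which binds CArG boxes in promoters, together with myocardin-family coactivators. Pericytes, the mural cells of the smallest vessels, carry less of this machinery and are known for the PDGF receptor Pdgfrb, the signalling brake Rgs5 and the ATP-sensitive potassium channel made of Kcnj8 and Abcc9. Both cell types lay down basement membrane and collagen, and mural cells in muscle sit close to the Pax7-positive stem cells.

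The F/R/C+CP matrix held exactly 12000 barcodes, where 5000 cells were targeted, and 271351748 UMIs in its kept barcodes. Members had a median of 25377 UMIs and 5267 detected genes, against 21797 UMIs and 4570 genes in the other barcodes and 20128 UMIs and 4595 genes in the Pax7 set. Ribosomal protein genes took a median of 21.7% of the members' UMIs, against 28.6% in the other barcodes. The 2 libraries shared 18 barcode sequences. No doublet caller was run. RNA of contractile fibers was present throughout, since every member had at least 7 UMIs of the skeletal actin Acta1 and every other barcode at least 4.

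The members made up 1.67% of the kept F/R/C+CP barcodes (95% exact Clopper-Pearson interval 1.44 to 1.93). In the F/R/C library, 4 of 3962 kept barcodes reached 3 Myh11 UMIs (0.101%, interval 0.0275 to 0.258). The F/R/C library was shallower, with a median of 7112 UMIs per kept barcode against 21845 in F/R/C+CP. Kept barcodes with at least 4000 UMIs were then thinned to 4000 UMIs, which left out shallower F/R/C barcodes. The 4 F/R/C barcodes above had 3326 to 6126 UMIs, so not all of them were in this count. At least 1 Myh11 UMI was seen in 190 of 10834 F/R/C+CP barcodes (1.75%, interval 1.51 to 2.02) and in 18 of 3330 F/R/C barcodes (0.541%, interval 0.321 to 0.853). At the threshold of 3 UMIs on the thinned counts, 70 F/R/C+CP barcodes and 1 F/R/C barcode were left. Among barcodes with at least 4000 UMIs, the share was thus higher in the F/R/C+CP clone than in the F/R/C clone at equal depth.

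Myh11 itself ranged from 3 to 147 UMIs among members, with a median of 11. Of the 181 members, 97 had 10 or more and 33 had 30 or more. Just inside the threshold, 20 barcodes had exactly 3 Myh11 UMIs and held 356 counts of Actg2 per 1000000 (CPM) and 1474 CPM of Tagln. Just outside, 15 barcodes had 2 Myh11 UMIs and held 132 CPM of Actg2 and 1044 CPM of Tagln. The 247 barcodes with 1 Myh11 UMI held 20.5 CPM of Actg2, and the 10391 with none held 4.13 CPM.

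The other markers given with the label are described next. They were chosen with earlier results of these data known, so their levels are a description and no check of the label. Tagln (transgelin, an actin-bundling protein of smooth muscle) had a UMI in 95.03% of members at 12000 UMIs (interval 90.8 to 97.7), against 48.5% of other barcodes. Bgn (biglycan, a matrix proteoglycan) had one in 83.4% of members and 6.73% of other barcodes. Abcc9, the regulatory subunit of the ATP-sensitive potassium channel, had one in 52.5% of members and 13.2% of other barcodes. As a measure of free RNA, the same shares were taken in 52 barcodes outside the members with at least 10 UMIs of Tyrp1, a gene of melanocytes, which should lack these genes, with a median of 17744 UMIs. There, 23.1% had Tagln, 1.92% had Bgn and 1.92% had Abcc9. All of these markers were above that background in members, while Abcc9 marked only part of them.

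Several genes that define mature smooth muscle were at or near 0. Kcnmb1 and Kcna5, potassium channel subunits of vascular muscle, had no count in members or in other barcodes. Myocd, the myocardin coactivator, was at 2.21 CPM in members and 1.52 CPM in other barcodes, and 8 of 181 members had a UMI. Pln, the phospholamban brake of the calcium pump, was at 0.804 CPM in members and 0.890 CPM in other barcodes. Cspg4 (the NG2 proteoglycan of pericytes) was at 1.41 CPM in members and 1.49 CPM in other barcodes. The members therefore carried part of each program, and "smooth muscle or pericyte-like" is used here only in that sense.

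Contractile genes were higher in members as a group. Of 25 genes of the contractile list other than Myh11, 24 averaged at least 5 CPM over the 2 groups, and 16 of these were at least 2-fold higher and 0 at least 2-fold lower in members than in other barcodes. Across all 10146 genes that passed the same filter, 15.6% were at least 2-fold higher and 5.17% at least 2-fold lower. The list's median log2 ratio was 2.48 (2.40 to 2.55), against 0.09 over all genes. Without the filter, which a gene can pass through the group where it is high, the median over 25 genes was 2.32. Against the Pax7 set, 20 contractile genes were at least 2-fold higher and 0 lower, where 14.7% of all genes were higher and 7.45% lower.

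Actg2, the gamma smooth muscle actin, had 0 to 316 UMIs per member with a median of 10, against a median of 0 and a highest value of 36 in other barcodes. Its level was 1233 CPM in members, 4.73 CPM in other barcodes and 5.77 CPM in the Pax7 set, a log2 ratio of 8.03 over other barcodes (7.94 to 8.11). The groups overlapped, because 22 members had no Actg2 UMI. Cnn1, the calponin that restrains actomyosin in smooth muscle, had 0 to 82 UMIs per member with a median of 1, and at most 6 in any other barcode. Cnn1 stood at 261 CPM in members and 0.698 CPM in other barcodes (log2 ratio 8.55, 8.32 to 8.78). Most counts of both genes lay in members, which held 1.83% of the library's UMIs but 83.0% of its Actg2 counts and 87.5% of its Cnn1 counts.

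Genes shared with other cells of the culture gave smaller ratios. Tagln was at 3603 CPM in members, 101 CPM in other barcodes and 153 CPM in the Pax7 set, with 0 to 585 UMIs per member and a median of 56. Acta2, the alpha smooth muscle actin that developing skeletal muscle also uses, was at 3938 CPM in members and 473 CPM in other barcodes, an 8.32-fold difference, and at 207 CPM in the Pax7 set. Cald1 (caldesmon) was 22.6-fold, Myl9 (the regulatory myosin light chain) 21.9-fold, Mylk (the kinase that phosphorylates it) 33.4-fold and Lmod1 (leiomodin, an actin nucleator) 23.0-fold higher in members than in other barcodes. By contrast, contractile genes that skeletal muscle uses as well did not stand out from other barcodes. Tpm1 was at 3274 CPM in members and 2425 CPM in other barcodes, Tpm2 at 2239 and 1930 CPM, and Des (desmin) at 936 and 1399 CPM. The list without Myh11 summed to 23113 CPM in members, 7987 CPM in other barcodes and 4229 CPM in the Pax7 set.

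**Figure D1:**
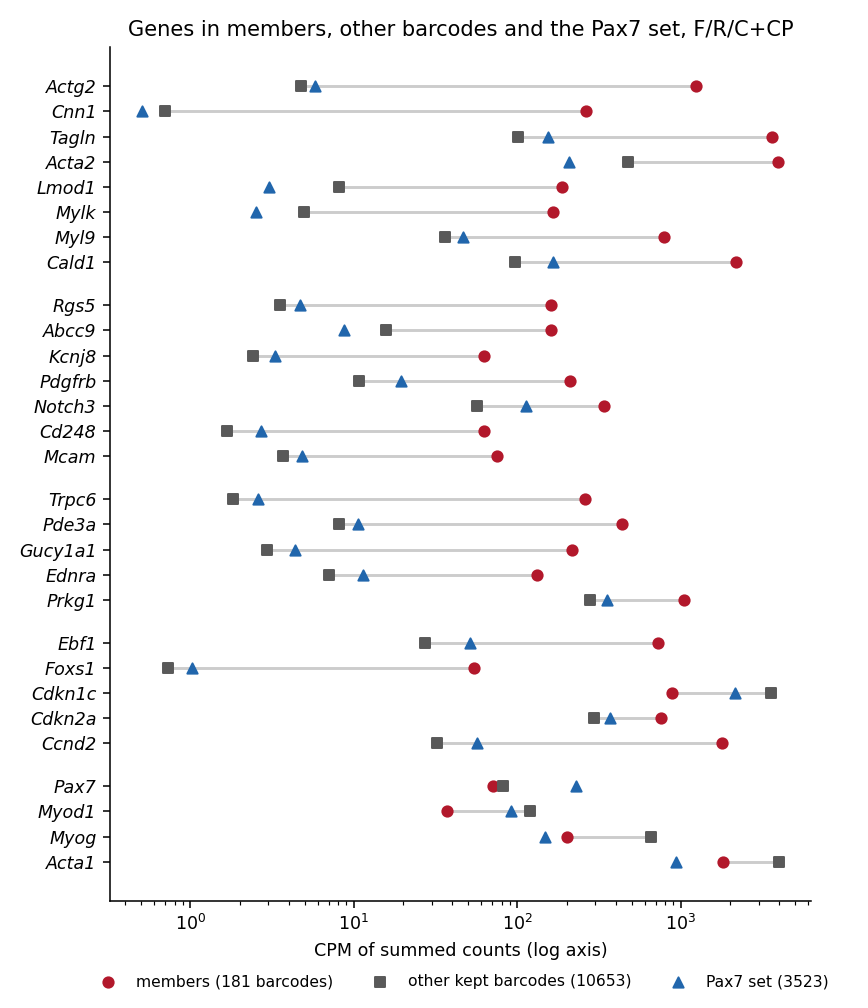
Levels of 29 genes in the F/R/C+CP library, as CPM of counts summed over barcodes on a log axis, for members (red circles), other kept barcodes (grey squares) and the Pax7 set (blue triangles). Cnn1 and Actg2 lie farthest apart, at 261 against 0.698 CPM and 1233 against 4.73 CPM in members and other barcodes, and Cdkn1c, Myod1, Myog and Acta1 lie lower in members than in other barcodes.

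Upstream sequences are shown for contractile or calcium-entry genes that were raised in members, because CArG boxes are the element through which SRF is known to act on this gene class. A CArG box is CC, a run of A or T bases, and GG. RefSeq windows of 250 bases before to 50 bases after each start (build GRCm38.p6) were searched and matched 22 of the 26 contractile genes, with Myh11, Actg2 and Tagln not among them. An exact CArG box was present in 4 of these genes, Filip1l, Myl6, Myl9 and Vcl (18.2%), against 1.81% of all 27025 genes with a window. In the skeletal sarcomere list 3 of 23 matched genes held one (13.0%), in the pericyte list 0 of 15 and in the secreted matrix list 0 of 20. Trpc6 was the only one of 20 matched genes in the list of ion channel and nucleotide signalling genes (5%). It was also the only one of 15 matched genes among the 30 genes with the highest ratio (6.67%). With 1 C or G allowed among the central bases of the box, 7 of the 22 contractile genes had a match (31.8%), against 11.3% of all genes. For the 15 matched genes with the highest ratios the share was 13.3%. The box reads the same on both strands in form, so 1 search covered both. A match describes the letters and not a bound site. Each stretch is printed 5′ to 3′ in lower case, with exact and 1-base-off boxes in capitals.

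Myl9, regulatory myosin light chain, chr2:156775214-156775463, plus strand, exact box beginning 161 bases before the start and a 1-base-off box at 99: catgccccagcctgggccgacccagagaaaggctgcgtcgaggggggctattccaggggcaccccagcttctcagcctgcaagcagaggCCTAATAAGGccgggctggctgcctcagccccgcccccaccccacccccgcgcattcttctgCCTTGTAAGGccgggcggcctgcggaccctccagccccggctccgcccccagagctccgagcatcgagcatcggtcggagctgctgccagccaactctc

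Trpc6, a cation channel through which calcium enters smooth muscle, chr9:8543892-8544141, plus strand, exact box beginning 122 bases before the start: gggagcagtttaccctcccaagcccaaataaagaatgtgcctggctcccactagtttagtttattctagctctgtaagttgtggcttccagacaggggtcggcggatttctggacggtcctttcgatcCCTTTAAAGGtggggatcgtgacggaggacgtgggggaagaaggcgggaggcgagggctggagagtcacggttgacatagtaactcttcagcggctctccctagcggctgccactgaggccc

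Vcl, vinculin, which anchors actin at adhesions, chr14:20929148-20929397, plus strand, exact box beginning 227 bases before the start: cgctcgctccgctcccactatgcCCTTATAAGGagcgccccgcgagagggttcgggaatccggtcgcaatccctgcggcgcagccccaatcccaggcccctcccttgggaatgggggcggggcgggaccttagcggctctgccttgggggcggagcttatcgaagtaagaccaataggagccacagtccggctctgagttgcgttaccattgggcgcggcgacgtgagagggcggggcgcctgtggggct

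Acta2, alpha smooth muscle actin, chr19:34255374-34255623, minus strand, with 1-base-off boxes beginning 84 and 34 bases before the start: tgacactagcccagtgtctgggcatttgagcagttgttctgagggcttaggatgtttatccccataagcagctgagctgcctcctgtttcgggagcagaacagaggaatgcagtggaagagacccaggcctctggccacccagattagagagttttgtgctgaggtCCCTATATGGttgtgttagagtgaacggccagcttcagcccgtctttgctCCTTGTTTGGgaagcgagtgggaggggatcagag

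The printed genes with an exact box differed in how far members stood from other barcodes. Levels of Filip1l and Myl6, which also held one, are not given here. Myl9 was 788 CPM in members and 36.0 CPM in other barcodes, Trpc6 257 and 1.82 CPM, and Vcl 478 and 122 CPM. Cnn1, which stood at 261 and 0.698 CPM, had neither kind of box in the 250 bases before its start. SRF itself (Srf) was at 8.84 CPM in members and 6.93 CPM in other barcodes, and the myocardin-related coactivators Mrtfa and Mrtfb were 1.72 and 2.35 higher on the log2 scale in members.

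Pericyte genes were higher as a group too. Of 24 genes of the list, 17 passed the filter, 15 were at least 2-fold higher and 0 at least 2-fold lower in members than in other barcodes. The shares over all genes, 15.6% higher and 5.17% lower, apply to this count and to every list set against other barcodes below. For counts against the Pax7 set they are 14.7% higher and 7.45% lower. The median log2 ratio was 3.93 (3.77 to 4.22) over the genes that passed and 3.72 over all 24. Against the Pax7 set it was 3.57 (3.38 to 3.76), with 14 higher and 0 lower. The list shares Rgs5, Gucy1a1, Ednra, Kcnj8 and Abcc9 with the signalling lists below.

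Rgs5, which dampens G protein signals in pericytes, had 0 to 50 UMIs per member with a median of 1, and was at 159 CPM in members against 3.51 CPM in other barcodes (log2 ratio 5.50, 5.37 to 5.64). Pdgfrb, the receptor through which pericytes are recruited, had 0 to 21 UMIs per member with a median of 5 and was at 211 CPM in members, 10.7 CPM in other barcodes and 19.4 CPM in the Pax7 set. Notch3, the mural cell Notch receptor, was more widely shared, at 336 CPM in members, 56.6 CPM in other barcodes and 113 CPM in the Pax7 set. Pdgfrb and Notch3 had a UMI in 84.0% and 87.8% of members at 12000 UMIs, whereas Rgs5 had one in 44.8%, Kcnj8 in 41.4% and Cd248 (endosialin) in 44.2%. The Tyrp1 background set had 0 of 52 barcodes with a UMI of Rgs5, Kcnj8 or Cd248 at that depth, which allows up to 6.85% (exact upper limit), and 3.85% and 15.4% with Pdgfrb and Notch3.

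Both subunits of the ATP-sensitive potassium channel were raised. Kcnj8, the pore, was at 62.3 CPM in members and 2.41 CPM in other barcodes (log2 ratio 4.69, 4.49 to 4.89). Abcc9, its partner, had 0 to 54 UMIs per member with a median of 1 and was at 161 CPM in members, 15.7 CPM in other barcodes and 8.71 CPM in the Pax7 set. Abcc9 was also at 23.2 CPM in the 2174 barcodes with more than 3% of their UMIs in skeletal sarcomere genes, where Kcnj8 was at 0.595 CPM. The channel pair therefore separated members more cleanly through Kcnj8 than through Abcc9.

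Members also carried the machinery of nitric oxide and cyclic nucleotide control. Gucy1a1 and Gucy1b1, the subunits of the nitric oxide receptor guanylate cyclase, were at 215 and 113 CPM in members and at 2.94 and 8.95 CPM in other barcodes. Pde3a, which breaks down cyclic AMP, was 53.7-fold higher (436 against 8.11 CPM), and Prkg1, the cyclic GMP-dependent kinase, 3.79-fold higher (1051 against 277 CPM). Trpc6 was 141-fold higher and Ano1, a calcium-activated chloride channel, 31.6-fold higher. Cacna1c, the L-type calcium channel of smooth muscle, stood at 95.8 CPM in members and 7.74 CPM in other barcodes. Of the 25 genes of this list, 18 passed the filter, 14 were at least 2-fold higher and 2, Ryr3 and Rgs2, at least 2-fold lower in members (median over the 23 with any count 1.92). Ryr3 was at 55.9 CPM in members and 175 CPM in other barcodes.

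Receptors for vasoactive signals were led by Ednra, the endothelin A receptor, at 132 CPM in members and 7.001 CPM in other barcodes. Of 22 receptors, 9 passed the filter and 6 were at least 2-fold higher in members, where 15.6% of all genes were higher. Over all 22 the median log2 ratio was 1.33, with 3 genes absent from members ranked lowest. Htr2a, a serotonin receptor, was at 10.4 CPM in members and 0.0751 CPM in other barcodes (52 counts in all members). The adrenergic receptor Adra1a and the oxytocin receptor Oxtr had 0.603 and 0 CPM in members and 0.740 and 0.165 CPM in other barcodes.

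Collagen genes were higher as a group. Of 19 genes, 16 passed the filter and all 16 were at least 2-fold higher in members than in other barcodes, with a median log2 ratio of 3.44 (3.38 to 3.53), and against the Pax7 set 16 of 16 were also higher. Col4a1, a basement membrane chain, was at 1433 CPM in members and 207 CPM in other barcodes. Col3a1, a fibril-forming chain, had a median of 12 UMIs per member and was at 642 CPM in members and 59.0 CPM in other barcodes. Col8a1, a chain known from vessel walls, was 124-fold higher than in other barcodes, with 193 against 1.56 CPM, but it was also at 136 CPM in the Tyrp1 set. Col1a2 did not pass the filter and was at 2.41 CPM in members and 2.69 CPM in other barcodes, while its partner chain Col1a1 was at 44.8 and 0.518 CPM.

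Of 35 other secreted matrix genes, 26 passed the filter, 20 were at least 2-fold higher and 0 at least 2-fold lower in members. Their median log2 ratio was 2.72 (2.57 to 2.91), and 2.27 over the 34 genes with any count. Bgn had 0 to 42 UMIs per member with a median of 8 and was at 328 CPM in members, 7.47 CPM in other barcodes and 15.1 CPM in the Pax7 set. Postn (periostin) was at 247 CPM in members and 3.84 CPM in other barcodes, Sparc (osteonectin) at 3646 and 364 CPM, and Timp1, an inhibitor of matrix proteases, at 801 and 32.7 CPM. Eln (elastin), which stretches large arteries, stood at only 18.1 CPM in members, against 0.920 CPM in other barcodes. Vcan (versican) was at 57.3 CPM in members and 99.5 CPM in other barcodes.

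**Figure D2:**
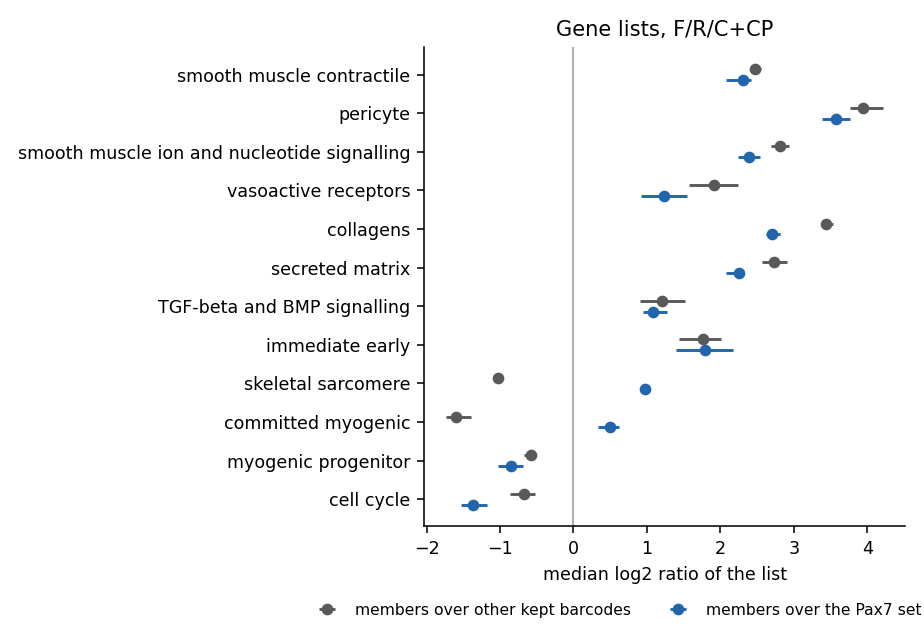
Median log2 ratio of 12 gene lists in members over other kept barcodes (grey) and over the Pax7 set (blue), over genes averaging at least 5 CPM in the 2 groups compared. Horizontal lines span the medians of the genes' lower and upper 95% counting bounds. The pericyte list lies highest (3.93 and 3.57), and the skeletal sarcomere list lies at -1.03 against other barcodes and at 0.98 against the Pax7 set, which rested on 13 sarcomere-rich members.

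Of 10 fibroblast markers, 4 passed the filter (Dcn, Thy1, Col15a1 and Col14a1) and all 4 were at least 2-fold higher in members, with a median log2 ratio of 4.76. Over the 9 with any count the median was 1.88, with genes absent from members ranked lowest. Pdgfra, the receptor that marks fibroblasts and fibro-adipogenic cells, was at 0.603 CPM in members, with a UMI in 3 of 181. Lum and Cd34 had no count in members, and Ly6a was at 0.603 CPM. Dcn (decorin) was at 59.1 CPM in members and 1.41 CPM in other barcodes, and 25.4% of members had a Dcn UMI at 12000 UMIs, against 1.33% of other barcodes and 1.92% of the Tyrp1 set. Thy1 was at 15.3 CPM in members and 0.439 CPM in other barcodes.

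Endothelial, immune and epithelial genes were mostly low or missing in members. Kdr, Cdh5 and Cldn5, which define endothelium, had 0 counts in members. Of 9 endothelial genes, 2 passed the filter, and 1 of these, Flt1, was at least 2-fold higher in members. Without the filter, 4 of the 8 with any count were at least 2-fold higher. Flt1, a VEGF receptor that pericytes can also carry, was at 31.3 CPM in members and 0.420 CPM in other barcodes. It had a UMI at 12000 UMIs in 20.4% of members, 0.413% of other barcodes and 0 of 52 barcodes of the Tyrp1 set. Cd93, another gene known from endothelium, was among the highest leading genes, at 70.1 CPM in members and 0.267 CPM in other barcodes. Ptprc, Tyrobp, Epcam and Krt14 had 0 counts. Tyrp1 was at 4.02 CPM in members and 6.40 CPM in other barcodes, and 1 member had at least 10 Tyrp1 UMIs.

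Transcription factors were described from a fixed list of 33 genes, of which 20 passed the filter, 11 were at least 2-fold higher and 2 at least 2-fold lower in members. Among all genes, 15.6% were higher and 5.17% lower. Ebf1, a factor known from pericyte and adipocyte lineages, had 0 to 172 UMIs per member with a median of 13 and was at 722 CPM in members, 27.3 CPM in other barcodes and 51.0 CPM in the Pax7 set. Foxs1, a forkhead factor of perivascular cells, was at 53.8 CPM in members and 0.725 CPM in other barcodes. Nr2f2, which specifies venous fate, was at 393 CPM in members and 83.3 CPM in other barcodes, and Zeb2 at 966 and 207 CPM. Mef2c and Meox1 were the 2 lower genes, Mef2c at 357 CPM in members and 752 CPM in other barcodes and Meox1 at 5.22 and 12.3 CPM. Tcf21 and Nkx2-3 had 0 counts in both groups, and Hand2 and Foxf1 had 0 in members.

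Genes of the pathways that the small molecules act on were read as well. Of 29 TGF-β and BMP genes, 22 passed the filter, 12 were at least 2-fold higher and 1, Skil, at least 2-fold lower in members (median over all 29 without the filter 1.12, a gene absent from members ranked lowest). All genes that passed gave 15.6% higher and 5.17% lower. The raised genes included known TGF-β responsive ones, with Ccn2 at 82.6 CPM in members and 1.25 CPM in other barcodes and Inhba at 51.0 and 0.916 CPM, with RepSox in the medium of both clones. Thbs1, a matrix activator of TGF-β, was at 112 and 0.890 CPM. Of 20 JAK and STAT genes, 14 passed, 8 were at least 2-fold higher and 0 lower (median over all 20 without the filter 0.91), among them Jak1 (128 CPM in members, 45.2 CPM in other barcodes) and Stat6 (9.44 and 0.664 CPM). The STAT targets Socs3 and Cish were at 6.63 and 2.21 CPM in members and at 3.97 and 1.16 CPM in other barcodes.

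Immediate early genes were also raised, with 14 of 18 genes that passed at least 2-fold higher and a median log2 ratio of 1.77 (1.44 to 2.01), and 1.85 over all 20. Fos was at 58.7 CPM in members and 9.93 CPM in other barcodes, and Egr1 at 188 and 69.9 CPM. In Notch signalling, 15 of 21 genes passed, 6 were higher and 1 lower, where 15.6% of all genes were higher and 5.17% lower. Jag1, a ligand known from vessel walls, was at 65.9 CPM in members and 6.07 CPM in other barcodes, whereas Dll1, a ligand of committed myogenic cells, was at 3.01 and 13.2 CPM.

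Skeletal muscle genes were lower in members than in other barcodes. Of 26 sarcomere genes, 25 passed, 0 were at least 2-fold higher and 15 at least 2-fold lower than in other barcodes, with a median log2 ratio of -1.03 (-1.10 to -0.96). Against the Pax7 set the median of the summed counts was 0.98 (0.90 to 1.05), with 10 genes higher and 0 lower, but this rested on 13 members with more than 3% of their UMIs in these genes. Without all such barcodes, 168 members against 3467 barcodes of the Pax7 set gave a median of -0.12 (-0.22 to -0.02), with 0 genes higher and 2 lower of 24. Acta1 was at 1813 CPM in members, 3995 CPM in other barcodes and 929 CPM in the Pax7 set, and at 745 CPM in the 168 members and 807 CPM in the Pax7 set without those barcodes. Per barcode, sarcomere genes took a median of 0.712% of a member's UMIs (range 0.297 to 11.1), against 0.986% in other barcodes, 0.801% in the Pax7 set and 0.903% in the Tyrp1 set. The member median thus lay below all of these. Without every barcode above 3%, the median log2 ratio over other barcodes was -0.35, and with a rule of at least 10 Myh11 UMIs it was -2.19.

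Committed myogenic genes followed. Of 10 genes, 8 were at least 2-fold lower in members than in other barcodes (median log2 ratio -1.60), and 3 were lower and 2 higher than in the Pax7 set (median 0.49, and -0.28 without sarcomere-rich barcodes). Among all genes, 5.17% were lower than in other barcodes, and 7.45% were lower and 14.7% higher than in the Pax7 set. Myod1 was at 37.0 CPM in members, 120 CPM in other barcodes and 91.0 CPM in the Pax7 set, and Myog, the differentiation factor, at 200, 659 and 147 CPM. The log2 ratio of Myog was -1.72 over other barcodes and 0.45 over the Pax7 set, but -0.10 (-0.22 to 0.03) over the Pax7 set without sarcomere-rich barcodes. Per barcode, Myog had a median of 2 UMIs in members and 2 in the Pax7 set.

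Pax7 was present in members but below the Pax7 set. Its level was 71.1 CPM in members and 82.0 CPM in other barcodes (log2 ratio -0.20, -0.36 to -0.05), and 228 CPM in the Pax7 set, which was chosen on it. A Pax7 level of at least 1 per 10000 UMIs was found in 45 of 181 members (24.9%, 18.7 to 31.8), against 3618 of 10653 other barcodes (34.0%, 33.1 to 34.9). In barcodes that should lack Pax7 that level was reached by 3 of 52 Tyrp1 barcodes (5.77%, 1.21 to 15.9) and 60 of 2174 sarcomere-rich barcodes (2.76%, 2.11 to 3.54). Median UMIs were 25377 in members, 17744 in the Tyrp1 set and 32281 in the sarcomere-rich set. The members' share was thus above both backgrounds. Of 16 progenitor genes, 13 passed the filter, 5 were at least 2-fold lower and 2 at least 2-fold higher in members than in other barcodes. Over all genes, 5.17% were lower and 15.6% higher. Against the Pax7 set, 6 progenitor genes were lower and 2 higher. Among the lower ones, Fgfr4 was at 30.5 CPM in members and 87.8 CPM in other barcodes and Msc (musculin) at 4.82 and 14.6 CPM.

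The 45 members with that Pax7 level were compared with the 68 members without a Pax7 UMI. They had a similar median depth, 24037 and 23190 UMIs. Actg2 was at 393 CPM with Pax7 and 1872 CPM without, Cnn1 at 111 and 355 CPM, and Tagln at 1928 and 4971 CPM. Pericyte genes differed less, with Kcnj8 at 82.05 and 59.04 CPM, Abcc9 at 191 and 160 CPM, Rgs5 at 162 and 170 CPM and Pdgfrb at 228 and 221 CPM. Fgfr4 was at 42.3 CPM in members with Pax7 and 13.8 CPM in members without. Whether such barcodes hold 1 cell or 2 was not tested.

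Cell cycle genes were lower in members. Of 27 genes, 9 were at least 2-fold lower and 1, the inhibitor Cdkn2a, at least 2-fold higher than in other barcodes (median log2 ratio -0.67, -0.87 to -0.52), and 22 were lower and 2 higher than in the Pax7 set (median -1.37). The lower genes include the inhibitor Cdkn1c, which is in the committed myogenic list too, and the list does not hold the cyclin Ccnd2. Among all genes, 5.17% were lower and 15.6% higher than in other barcodes, and 7.45% and 14.7% against the Pax7 set. Mki67, a proliferation marker, was at 89.4 CPM in members, 142 CPM in other barcodes and 260 CPM in the Pax7 set. The replication factors Mcm6 (35.0 CPM in members, 87.4 CPM in other barcodes) and Mcm3 (38.0 and 87.0 CPM) were among the lower ones. A Mki67 UMI was seen at 12000 UMIs in 29.8% of members (23.3 to 37.1) and 46.2% of other barcodes. The share was 38.5% in the Tyrp1 set (25.3 to 53.0) and 12.0% in the sarcomere-rich set (10.6 to 13.4). The members' share was thus above the sarcomere-rich set and not above the Tyrp1 set. Whether members or free RNA gave these UMIs was not tested.

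Cyclin-dependent kinase inhibitors moved in different directions. Cdkn1c (p57), an imprinted inhibitor that muscle precursors express as they exit the cycle, had 0 to 264 UMIs per member with a median of 6, against a median of 51 in other barcodes. It was at 880 CPM in members, 3570 CPM in other barcodes and 2150 CPM in the Pax7 set (log2 ratio over other barcodes -2.02, -2.06 to -1.98). Cdkn2a, which encodes p16 and p19, was at 757 CPM in members, 295 CPM in other barcodes and 369 CPM in the Pax7 set. Cdkn1a (p21) was at 629 CPM in members and 701 CPM in other barcodes. Ccnd2, cyclin D2, was 55.4-fold higher, at 1793 CPM in members and 32.4 CPM in other barcodes.

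Beyond the lists, the 30 genes with the highest ratio at 20 CPM or more on average were ranked. After Myh11 and Cnn1 they were led by Cd93, Actg2, Lrrc32, Trpc6, Colec11, Thbs1 and Col8a1. Lrrc32 (GARP, which holds latent TGF-β at the cell surface) was at 68.7 CPM in members and 0.469 CPM in other barcodes. Colec11, a collectin, was at 50.2 CPM in members and 0.379 CPM in other barcodes, and Ramp1, a subunit of the CGRP receptor, at 123 and 1.56 CPM. Igfbp7, a matrix binder of insulin-like growth factors, was at 2131 CPM in members and 37.4 CPM in other barcodes. At the other end, Myo16 was at 4.62 CPM in members and 53.0 CPM in other barcodes, and Sln (sarcolipin, a calcium pump regulator of muscle) at 19.9 and 109 CPM. The Pax7 set was lower than other barcodes too, with 8.87 CPM of Myo16 and 16.6 CPM of Sln.

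The profile changed with the amount of Myh11. Barcodes with 3 to 4 Myh11 UMIs (39) held 315 CPM of Actg2, those with 5 to 9 (45) held 280 CPM, those with 10 to 29 (64) held 1361 CPM and those with 30 or more (33) held 3072 CPM. Cnn1 was at 44.0, 47.4, 231 and 779 CPM over the same bins. Pericyte genes did not follow this order, with Abcc9 at 105, 204, 194 and 118 CPM and Rgs5 at 114, 155, 191 and 160 CPM. Cdkn1c was at 1609, 1170, 560 and 306 CPM, and Pax7 at 82.3, 85.6, 67.9 and 48.0 CPM. Summed Acta1 reached 3852 CPM in the bin of 5 to 9, near the 3998 CPM in barcodes without Myh11, and 622 CPM in the highest bin. Over all members, Acta1 had a median of 17 UMIs and at most 871. The median share of UMIs in sarcomere genes was 0.905% in the bin of 5 to 9 and 0.988% in barcodes without Myh11. Median depth over the member bins, from low to high Myh11, was 25302, 19528, 24069 and 31270 UMIs.

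**Figure D3:**
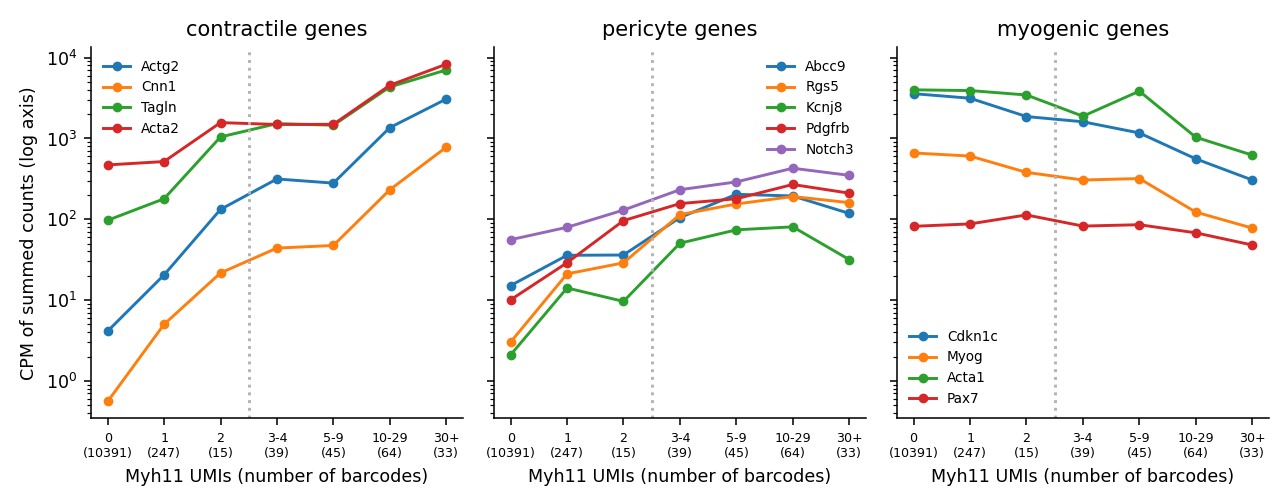
CPM of summed counts (log axis) by bin of Myh11 UMIs, with the number of barcodes in brackets and a dotted line at the threshold for members. Actg2 climbs to 3072 CPM and Cnn1 to 779 CPM in the highest bin, Abcc9 stays between 105 and 204 CPM in members, and Cdkn1c declines to 306 CPM.

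Members varied along 2 gene programs. Spearman correlations over the 181 members, on counts thinned to 12000 UMIs, were 0.86 between Tagln and Acta2, 0.85 between Actg2 and Tagln and 0.73 between Actg2 and Cnn1. They were 0.70 between Abcc9 and Kcnj8, 0.69 between Abcc9 and Col3a1 and 0.54 between Abcc9 and Rgs5. Across the programs, Acta2 gave -0.54 with Abcc9, -0.36 with Rgs5, -0.21 with Notch3 and -0.13 with Pdgfrb, and Cnn1 gave -0.45 with Abcc9. Values near 0 were found for Actg2 with Pdgfrb (-0.04), Tagln with Pdgfrb (-0.03) and Lmod1 with Notch3 (-0.04), so that the opposition held for Abcc9, Kcnj8 and Rgs5 more than for Pdgfrb and Notch3. With a barcode's total UMIs, Abcc9 gave -0.36, Kcnj8 -0.37, Rgs5 -0.29, Pdgfrb -0.38 and Col3a1 -0.48. Actg2 gave 0.06, Tagln 0.08, Acta2 0.12 and Cnn1 0.17. How far depth shapes the other correlations was not tested. All these values are descriptions, since members share 1 library, and within a barcode more of some genes leaves a smaller share for the rest.

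Counted per barcode, 93 members had at least 10 Actg2 UMIs and 79 had at least 3 Abcc9 UMIs. Both levels were reached by 20 members, Actg2 alone by 73, Abcc9 alone by 59 and neither by 29. Actg2, Cnn1 and Tagln together took 0% to 2.59% of a member's UMIs, with a median of 0.286%, against a median of 0.00518% in other barcodes. Abcc9, Kcnj8 and Rgs5 together took 0% to 0.300%, with a median of 0.0207%, against a median of 0% in other barcodes.

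**Figure D4:**
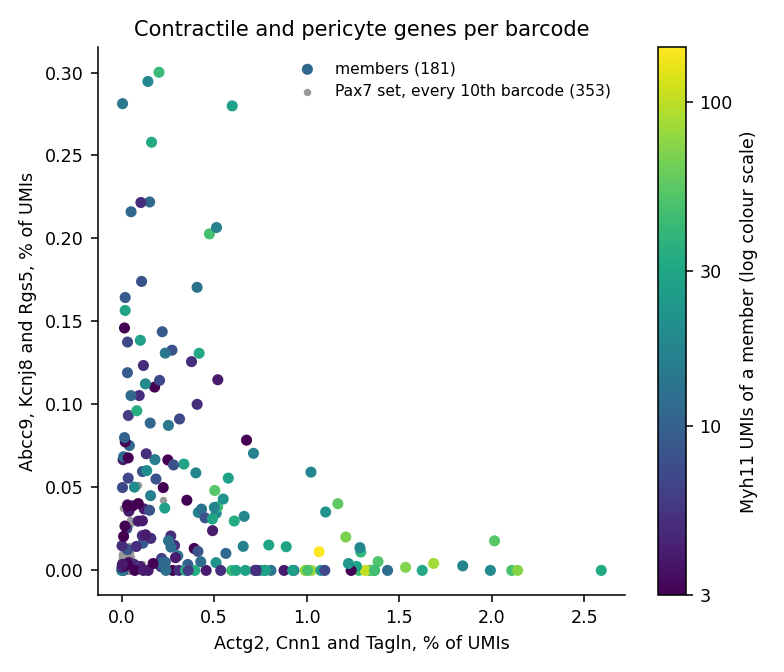
Share of UMIs in Actg2, Cnn1 and Tagln (x axis, %) and in Abcc9, Kcnj8 and Rgs5 (y axis, %) for each of the 181 members, coloured by Myh11 UMIs on a log scale, and for every 10th barcode of the Pax7 set (grey). Members spread along both axes, up to 2.59% and 0.300%, with few barcodes high on both.

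Members were ordered by their share of UMIs in Actg2, Cnn1 and Tagln and split into 4 bins of 46, 45, 45 and 45 barcodes. From the lowest to the highest bin, Acta2 was at 291, 1210, 3251 and 10364 CPM, Myl9 at 88.5, 273, 736 and 1950 CPM, and Lmod1 at 45.0, 123, 200 and 372 CPM. Neither these nor the genes below were used for the order. Myh11 was at 266, 404, 742 and 1263 CPM, as a description only. Median depth was 28060, 20310, 22705 and 29122 UMIs, which does not follow the order.

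Pericyte channel and receptor genes were lowest in the top bin. Abcc9 was at 205, 274, 180 and 10.9 CPM from the lowest to the highest bin, Kcnj8 at 81.3, 91.4, 76.7 and 7.99 CPM, and Rgs5 at 217, 241, 162 and 32.7 CPM. Gucy1a1 was at 223, 324, 268 and 77.0 CPM, Ednra at 123, 225, 180 and 28.3 CPM, and Dcn at 76.2, 133, 29.2 and 5.08 CPM. Pdgfrb and Notch3 were more even, at 181, 262, 241 and 175 CPM and at 283, 415, 436 and 245 CPM. Without the 13 sarcomere-rich members the pattern was kept, with Abcc9 at 263, 288, 190 and 11.5 CPM over bins of the remaining 168.

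Several genes of the TGF-β and BMP list were highest in the top bin. Of 24 genes of that list at 5 CPM or more, 13 were highest there, 9 were lowest there and 9 were lowest in the lowest bin. The same tally was not made over all genes, so it describes this list only, and the list was split. Ccn2 was at 15.2, 16.0, 64.8 and 219 CPM from the lowest to the highest bin, Inhba at 5.80, 10.7, 38.3 and 139 CPM, and Thbs1, of the secreted matrix list, at 16.7, 38.2, 79.4 and 295 CPM. Some genes listed as pericyte genes went with them, with Mcam (an adhesion molecule) at 14.5, 43.5, 99.5 and 141 CPM, Cd248 at 17.4, 32.0, 77.6 and 119 CPM and Foxs1 at 18.9, 28.4, 58.4 and 106 CPM. Timp1 was at 128, 502, 428 and 2015 CPM, whereas Col3a1 was at 596, 1027, 720 and 312 CPM. Pax7 was at 110, 66.6, 85.8 and 24.7 CPM and Cdkn1c at 1353, 1244, 692 and 257 CPM, while Mki67 was at 106, 79.0, 64.8 and 101 CPM.

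**Figure D5:**
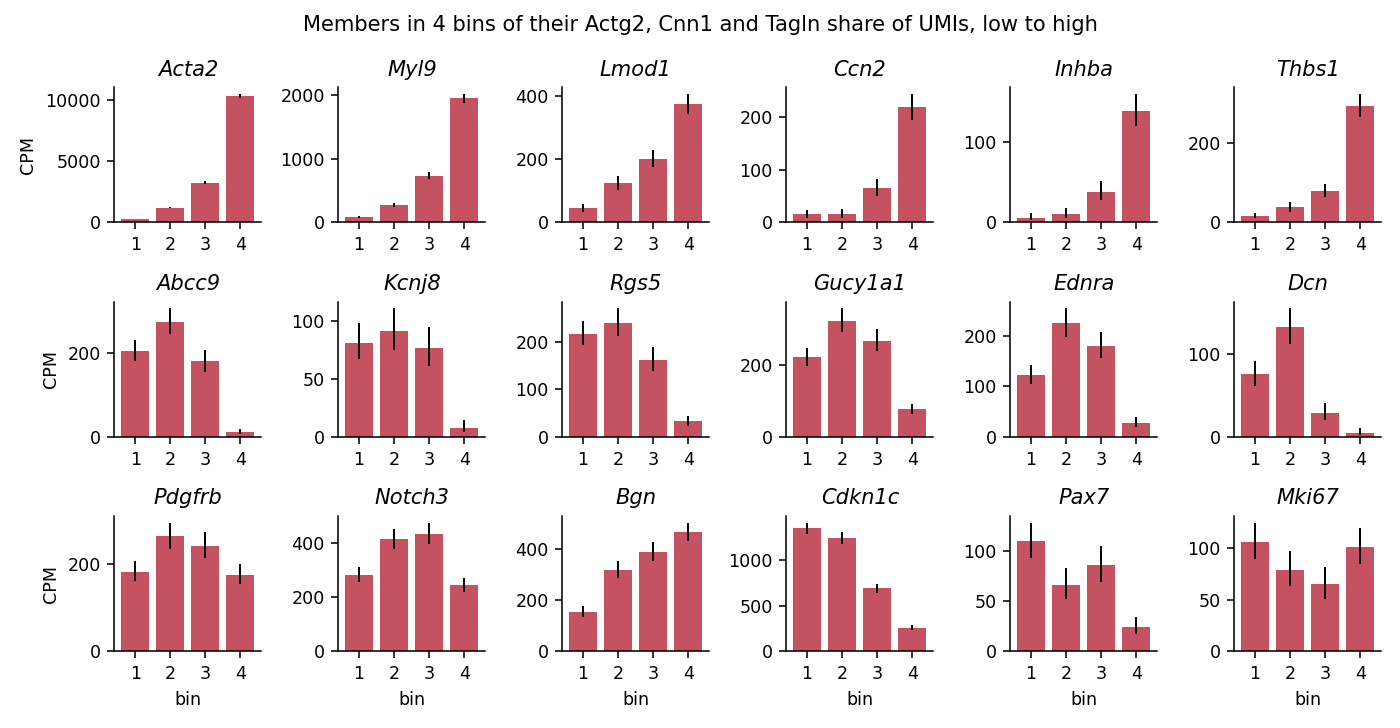
CPM of 18 genes in 4 bins of the 181 members ordered by their Actg2, Cnn1 and Tagln share of UMIs, low to high. Bars start at 0 and lines are exact 95% Poisson intervals. Acta2, Ccn2 and Thbs1 are highest in bin 4 (10364, 219 and 295 CPM), and Abcc9, Kcnj8 and Dcn are lowest there (10.9, 7.99 and 5.08 CPM).

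Ranked over all genes at 20 CPM or more, the top bin was set against the lowest. Apart from the ordering genes, it led by Vgf (66.1 against 0.726 CPM), Acta2, H2-M9, Rasgrp2, Col8a1 (466 against 18.9 CPM) and Inhba, and by Slc1a6 and Tnfsf15, which had no count in the lowest bin. Bdnf, a neurotrophin, was at 93.7 and 5.08 CPM and the growth factor Tgfb3 at 391 and 29.02 CPM. The lowest bin led by Tnxb (2.18 CPM in the top bin, 60.2 CPM in the lowest), Adgrl3, Afap1l1 and Abcc9, and by muscle genes such as Myf6 (4.36 and 70.4 CPM) and Chrna1 (11.6 and 134 CPM). The lowest bin held 7 of the 13 sarcomere-rich members and the top bin 0.

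The pericyte program was not confined to the rule. Outside it, 70 barcodes reached the members' median share of UMIs in pericyte genes (0.169%), 51 of them with no Myh11 UMI, 18 with 1 and 1 with 2. Together they held 279 CPM of Abcc9, against 161 CPM in members, 296 CPM of Rgs5, against 159 CPM in members, and 1206 CPM of Ebf1, against 722 CPM in members. Actg2 was at 67.8 CPM in them and 1233 CPM in members, and Cnn1 at 0.837 and 261 CPM. Since they were chosen on the pericyte list, their pericyte values follow from that choice. They also lie outside the Myh11 rule, and Myh11 gave Spearman correlations of 0.51 with Actg2 and 0.47 with Cnn1 over members. Their lower contractile values are thus tied in part to the choice too, and all of these values are descriptions. The members' median share of UMIs in contractile genes (1.59%) was reached by 1068 of the 10653 other kept barcodes. The sarcomere-rich set had a median of 1.55% in this list. Outside both the rule and the sarcomere-rich set, 14 of 8479 barcodes reached the members' median.

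The kept cells of both libraries were compared for the same genes, with all kept barcodes of a library summed. Myh11 was at 13.5 CPM in F/R/C+CP and 2.08 CPM in F/R/C (log2 ratio 2.69, 2.32 to 3.09), Actg2 at 27.3 and 1.58 CPM (4.11, 3.68 to 4.57), Cnn1 at 5.48 and 0.287 CPM (4.25, 3.27 to 5.47) and Tagln at 165 and 29.4 CPM (2.49, 2.39 to 2.59). Pericyte genes went in both directions. Of 24 genes of the list, 9 had an interval above 0, 10 below 0 and 5 across it. The same count was not made over all genes, so the split is a description of this list and nothing particular to it. Among the higher ones, Foxs1 was at 1.70 CPM in F/R/C+CP and 0.395 CPM in F/R/C (2.10, 1.25 to 3.12) and Gucy1a1 at 6.84 and 2.44 CPM (1.49, 1.14 to 1.86). Among the others were Abcc9 at 18.3 CPM in F/R/C+CP and 20.6 CPM in F/R/C (-0.17, -0.29 to -0.04), Kcnj8 at 3.50 and 4.06 CPM (-0.21, -0.49 to 0.08), Rgs5 at 6.37 and 8.47 CPM and Pdgfrb at 14.3 and 18.3 CPM. Trpc6 was at 6.51 CPM in F/R/C+CP and 18.6 CPM in F/R/C. In such sums, fewer cells of a type and less RNA per cell cannot be told apart.

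The 4 F/R/C barcodes that met the rule had 3, 3, 4 and 7 Myh11 UMIs at a median of 4316 UMIs. They held 0 UMIs of Actg2 and 0 of Cnn1, and 4 UMIs of Tagln in all. Abcc9 had 1, 2, 3 and 4 UMIs in them, Ebf1 0, 5, 17 and 18, and Col3a1 4, 10, 12 and 12. With so few barcodes at this depth these values describe only those barcodes.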

How the data were processed

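Single-cell RNA sequencing libraries (10x 3' v3.1) from 2 iMPC clones, 1 per group, were analysed, with groups taken from the sample labels. The authors deposited whole-number UMI counts for each gene in each barcode, obtained by Cell Ranger 7.0.0 against GRCm39. STARsolo and Seurat 4.2.1 also appear in the submitters' notes on processing. A free RNA correction is described for F/R/C+CP, but the deposited counts are whole numbers, so whether they were corrected is not known, and the background was read from Tyrp1 and sarcomere-rich barcodes. Cell straining to remove myotubes preceded loading.

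Barcodes were kept with 250 to 7000 detected genes (at most 4000 in F/R/C), at most 15% mitochondrial and at most 40% ribosomal protein UMIs. CPM were taken from counts added up over the barcodes of a set, relative to that set's total. Reported log2 ratios set members over the comparison set with exact conditional binomial 95% intervals, and where a set had no count the ratio used 3 counts over that set instead. A gene at least 2-fold apart was called higher or lower, among genes averaging at least 5 CPM over the 2 sets. Shares carry exact Clopper-Pearson intervals. Thinning drew UMIs without replacement (seed 1). PCR duplicates were collapsed by UMI, and intervals and floors cover counting error only. Depth was 12742 to 82592 UMIs per member.

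The members and the gene lists were chosen with earlier results of these data known. Named genes were the 4 markers, up to 10 genes per list by size of the ratio with those its role rests on, and the 30 highest and 15 lowest genes at 20 CPM or more. The 4 bins by contractile share, the Tyrp1 and sarcomere-rich sets and the genes given for those bins were chosen after values were seen, as were list genes named for being low or absent. Some genes that the rule names are not reported here. Ratios and thinning were tested on simulated data. Promoters came from RefSeq, and no coordinates were converted. Python 3.11.15, numpy 2.4.6, scipy 1.17.1, pandas 2.3.3 and matplotlib 3.10.9 were used.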

Additional observations from a re-analysis of the deposited data

Results flagged for a closer look

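Barcodes removed by the filter also held the member signal, which lies outside the values described above. Of 1166 removed F/R/C+CP barcodes, 45 had at least 3 Myh11 UMIs (3.86%, exact interval 2.83 to 5.13), and 37 of these 45 were removed for more than 7000 detected genes. Their median was 49951 UMIs and 7374 genes. They held 701 CPM of Actg2, against 1233 CPM in members, 2546 CPM of Tagln, against 3603 CPM, and 156 CPM of Abcc9, against 161 CPM. Myog was at 281 CPM in them and 200 CPM in members, and Pax7 at 76.4 and 71.1 CPM. Whether these barcodes hold more than 1 cell was not tested.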

How the results depend on the processing

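The contractile, pericyte and matrix medians kept their direction under 14 alternatives, of which 12 were planned and 2 (members with Pax7, barcodes with Tyrp1) were added after the data were seen. Of 27 named genes, 26 were at least 2-fold apart, and 360 of their 364 values under an alternative were still at least 2-fold apart in the same direction. With the Pax7 set as the comparison, the sarcomere median turned to 0.978, Myog to 0.45 and Acta1 to 0.965 on the log2 scale. Without sarcomere-rich barcodes on both sides, a setting also added after the data were seen, these values were -0.115, -0.10 and -0.12, so the turn rested on 13 members. The cause of the other movements was not tested.

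The member share was 1.31% with at least 5 Myh11 UMIs, 0.895% with at least 10, 1.30% with at least 2 per 10000 UMIs, 1.94% without sarcomere-rich barcodes, 1.26% without members with Pax7 and 1.26% after thinning. The contractile, matrix and sarcomere medians were 2.40, 2.70 and -0.928 with at least 2 Myh11 UMIs, 2.67, 3.11 and -1.12 with at least 5, and 2.94, 3.14 and -2.19 with at least 10, where the pericyte median was 3.75. They were 2.77, 2.92 and -2.19 with at least 2 per 10000 UMIs. The contractile and matrix medians were 2.18 and 3.09 with no filter on barcodes. The contractile median was 2.66 without the deepest 5% of barcodes. The contractile and sarcomere medians were 2.70 and -0.345 without sarcomere-rich barcodes and 2.78 and -1.77 after thinning to 12000 UMIs. The contractile and matrix medians were 2.59 and 3.08 as means of each barcode's CPM. Without the 50 most counted genes, the contractile, matrix and sarcomere medians were 2.40, 3.01 and -1.11. With no filter on low genes, the contractile, pericyte and matrix medians were 2.32, 3.72 and 2.27. Against the Pax7 set they were 2.31, 3.57 and 2.25. Without members with Pax7, the contractile, matrix and sarcomere medians were 2.56, 3.08 and -0.829.

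A single library per group leaves all differences between the clones without a replicate. No paired analysis was possible because no result comes from a test. Genes under about 5 CPM in members rest on few counts, and a share of 0 among the members still allows some cells with a UMI.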
